A study of Homo sapiens with 8 samples.

Results

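T250470 is a long non-coding RNA (lncRNA) of MiTranscriptome, a catalogue of transcripts assembled from RNA sequencing of tumor and normal tissue. In a pooled CRISPRi growth screen it was targeted by 9 of the 6862 listed sgRNAs (6389 targeting, 473 non-targeting), taken here as all sgRNAs whose target name is T250470. The paper describes a larger library, and all shares, medians and comparisons here cover the listed sgRNAs only. T250470 was singled out because its sgRNAs disagreed after screening, so the changes in their abundance are given as a description. Calls from a test run over all sgRNAs are listed, and nothing is concluded from them for T250470. A loss was seen only in YLQ5983, the sgRNA nearest to the transcription start site (TSS), which fell to 21.8% of its starting abundance. The 8 other sgRNAs had overlapping abundances before and after screening. Overlap was usual: of all tested sgRNAs, 2.75% lay wholly lower after screening and 1.75% wholly higher. Among the 8, YLQ5990, YLQ5985 and YLQ5987 had few reads, so a loss of moderate size in them could not be seen.

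The screen used SW620, an established colorectal cancer cell line, transduced to express dCas9/KRAB and then infected with the lentiviral sgRNA library in 4 independent infections and selected with puromycin. The 4 libraries before screening come from day 0 and the 4 after screening from cells labelled day 17 in the sample titles and 18 days in the cultured time. All 8 carry the same dCas9/KRAB fusion and the same library, and whether the transduced cells were 1 clone is not stated. Reads per sgRNA were counted in genomic DNA, with totals of 3417248 to 3999875 per library, and abundance is given in RPM, the count scaled to that total. RNA of T250470 was not measured in these libraries, so the degree of knockdown by each sgRNA is not known from them.

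CRISPRi uses a catalytically dead Cas9 (dCas9) that carries the KRAB repressor domain to the site that pairs with the sgRNA, next to a short PAM motif (NGG), and transcription from a nearby promoter is lowered. An sgRNA that slows the growth of its cells becomes rarer in the pool. Several sgRNAs per transcript are used because single sgRNAs differ in efficacy and in the other sites they can bind.

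T250470 spans chr3:129681478-129721952 on the minus strand in the coordinates of the study's library, and the count files place its TSS at 129721951. The build of these coordinates is not named. The submitters' processing notes name hg38, but at none of 159 targets with an sgRNA found exactly in a RefSeq promoter window of GRCh38 was the position within 1 base of that in this build, so no gene is named here from the coordinates of T250470. None of the 9 sgRNAs occurs exactly in a RefSeq promoter window. No sgRNA of another target has its TSS within 50 kb. The nearest of the 71 other targets on the chromosome, T250213, starts 1124 kb away, so no neighboring target gives a second view of this promoter.

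The 9 sequences are shown because the sgRNAs lie close together and yet differ in outcome. They are written 5′ to 3′ from the farthest upstream to the nearest to the TSS, and the capitals mark the 9 bases next to the PAM, where pairing matters most for binding.
YLQ5991: tggctggggcgGGGTGGAGG
YLQ5990: ggtggagggccTGGCCGGAG
YLQ5989: gccggagcgggCCTGGCTAC
YLQ5988: gctgtcccctgCCCGTAGCC
YLQ5987: gcgaccgcctaGGCCAGGGC
YLQ5986: agggcaggtgaGGGCGGCGC
YLQ5985: gggcggcgcagGCCCCGGCC
YLQ5984: cacgcgcaccgCGGACACGC
YLQ5983: gagccgggagcGGCCCGCGG

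All 9 sgRNAs lie upstream of the given TSS, within a stretch of 174 bp. Positions in the files are the leftmost base of each site, and the strand column is opposite to the strand on which the sequence is read, as 474 of the 489 sgRNAs with a single promoter match showed. Read this way, the 6 pairs of overlapping T250470 sgRNAs were identical at all 31 shared bases, and the 6 sgRNAs whose next 3 bases are covered by other sgRNAs were all followed by NGG. YLQ5983 covers 39 to 58 bp upstream of the TSS, at chr3:129721990-129722009. The next, YLQ5984, covers 82 to 101 bp, and the farthest, YLQ5991, 193 to 212 bp. YLQ5983 is therefore not overlapped by another sgRNA, and its PAM could not be read. In all, 7 sgRNAs, YLQ5983 among them, read as the transcript strand, while YLQ5984 and YLQ5988 read as the opposite strand. Of all listed targeting sgRNAs, 16.0% lie wholly upstream of their TSS, and at the median the nearest base is 123 bp downstream. Of 793 targets with at least 5 listed sgRNAs, only T250470 and T338079, a target named after its values were seen, have every sgRNA wholly upstream.

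The sgRNAs share a high GC content, from 75% in YLQ5988 to 95% in YLQ5985, with 80% in 6 of them and 90% in YLQ5983. The median over all targeting sgRNAs was 50%, and 2.74% of these reach 80%. Each of the 9 holds 1 to 5 CG dinucleotides, with 5 in YLQ5984 and 4 in YLQ5983, against a median of 0 over the listed targeting sgRNAs. No sgRNA of another target shares the 9 bases at the PAM end of a T250470 sgRNA. Among the 35116 RefSeq promoter windows of GRCh38 (250 bases before to 50 after a gene start, both strands), no site with NGG matched a T250470 sgRNA with fewer than 2 mismatches. With exactly 2 mismatches, YLQ5985 matched windows of 2 genes and YLQ5991 of 1, and the other sgRNAs of T250470 matched none. At exactly 3 mismatches, YLQ5983 matched windows of 6 genes, YLQ5985 of 11, YLQ5991 of 7 and YLQ5988 of none. Sites outside these windows were not examined, and the part of other binding sites in the loss of YLQ5983 was not tested.

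The starting abundance of the 9 sgRNAs was very uneven. YLQ5988 was at 844 ± 9 RPM (SD, n = 4, as for all abundances here), at percentile 98.7 of all sgRNAs, and held 62.7% of the reads of the target. YLQ5987 was at 1.85 ± 1.84 RPM, from 4, 4, 16 and 3 counts, too few to pass edgeR's filter on low counts. The other 7 lay between 12.0 RPM (YLQ5985) and 159 RPM (YLQ5984), where the median of all listed sgRNAs was 76.6 RPM. In all, 6 sgRNAs, YLQ5983 among them, had at least 100 counts in each library before screening and so are the better measured ones.

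YLQ5983 was counted 431, 510, 455 and 453 times before screening in replicates 1 to 4 and 99, 101, 99 and 75 times after it. In RPM it was at 108, 128, 131 and 118 before and at 25.7, 29.2, 28.7 and 21.9 after screening. Every library after screening lay far below every library before it, and within each group the libraries were close together. The mean fell from 121 ± 10 to 26.4 ± 3.3 RPM, a 4.59-fold loss. Libraries of equal replicate number kept 23.8%, 22.9%, 21.9% and 18.6% of the starting abundance, although the sources do not tie equal numbers to the same infection. The coefficient of variation was 8.62% before and 12.6% after screening, where counting error alone would give 4.65% and 10.3%.

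Counts were compared across all sgRNAs with edgeR's quasi-likelihood fit, in which 6587 sgRNAs had enough reads, 8 of the 9 T250470 sgRNAs among them. The log2 fold change of YLQ5983 was -2.19 (standard error 0.18). An sgRNA was called depleted at a Benjamini-Hochberg adjusted p under 0.05, and 1 of the 8 tested T250470 sgRNAs was, where 0.698% of all tested sgRNAs were called depleted and 0.0759% enriched. It was also the only one of the 9 whose libraries did not overlap between the groups; over all tested sgRNAs, 2.75% lay wholly lower after screening (2.82% of the non-targeting ones) and 1.75% wholly higher. As T250470 was chosen by these values, nothing is read from either count. By log2 fold change YLQ5983 was in place 11 from the bottom of all tested sgRNAs, and in place 5 of the 4848 with at least 100 counts in each library before screening.

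The best measured of the sgRNAs that were not called was YLQ5988, with 3421, 3343, 2916 and 3246 counts before and 3058, 2766, 3009 and 2802 after screening. Its abundance of 836 to 856 RPM before and 794 to 873 RPM after screening overlapped, and its log2 fold change was -0.03 (standard error 0.05). This sgRNA lies 148 to 167 bp upstream and reads as the opposite strand. YLQ5984, the nearest neighbor of YLQ5983, was at 173, 164, 142 and 158 RPM before and at 136, 175, 102 and 163 RPM after screening. The groups overlapped, replicate 3 after screening being the lowest, and the log2 fold change was -0.13 (standard error 0.13). YLQ5986 at 115 to 134 bp upstream began at 108 ± 12 RPM, close to YLQ5983, and was at 106 ± 7 RPM after screening, a log2 fold change of -0.01 (standard error 0.14). Of the well counted sgRNAs it started nearest to YLQ5983 in abundance, and it kept 98.1% where YLQ5983 kept 21.8%.

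The farther sgRNAs YLQ5989 and YLQ5991 were counted less often. YLQ5989 was at 35.3, 33.3, 45.2 and 45.0 RPM before and at 26.7, 43.6, 29.0 and 39.8 RPM after screening, a log2 fold change of -0.18 (standard error 0.24). YLQ5991 was at 44.8, 54.3, 38.6 and 45.8 RPM before and at 47.5, 54.8, 45.0 and 55.0 RPM after screening, a log2 fold change of 0.15 (standard error 0.20). For both sgRNAs the groups overlapped, and these were the lowest and the highest fold changes among the 7 tested sgRNAs that were not called.

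The 3 remaining sgRNAs had few reads and scattered between libraries by more than counting error. Such excess was not limited to them. After screening, YLQ5984 varied by 22.7% where counting error gives 4.43%, YLQ5989 by 23.5% against 9.0%, and YLQ5988 by 4.44% against 1.85%. YLQ5986, at 6.29% against 5.15%, and YLQ5991, at 10.1% against 7.47%, were closer to counting error. YLQ5990 was counted 44, 39, 49 and 84 times before and 8, 45, 100 and 52 times after screening, a 14.0-fold spread in RPM among libraries of 1 group. Its log2 fold change was 0.07 with a standard error of 0.48, so neither a loss nor a gain of moderate size was detectable. The coefficient of variation of YLQ5990 after screening was 74.7%, where counting error alone would give 14.0%. YLQ5985 was counted 49, 69, 37 and 30 times before and 87, 36, 23 and 22 times after screening, a log2 fold change of -0.04 (standard error 0.47), and varied by 65.9% after screening against 15.4% from counting error. YLQ5987 was counted 4, 4, 16 and 3 times before and 19, 1, 4 and 17 times after screening, and no fold change is given. Replicate 1 after screening was the lowest library for YLQ5990 and the highest for YLQ5985, so the scatter of these sgRNAs did not follow 1 library in 1 direction.

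Over the 8 tested sgRNAs the median log2 fold change was -0.03 and the mean -0.30, the mean being set by YLQ5983. The median over all tested sgRNAs was 0.01. Without YLQ5983 the sgRNAs lay between -0.18 and 0.15, with an SD of 0.11. For scale, the 347 non-targeting sgRNAs with at least 100 counts in each library before screening lay between -0.42 and 0.48, with an SD of 0.14. The T250470 values include YLQ5990 and YLQ5985, which did not reach that count. All 461 tested non-targeting sgRNAs lay between -2.09 and 1.21, with an SD of 0.31. The summed abundance of the 9 sgRNAs went from 1346 ± 9 to 1212 ± 34 RPM, and YLQ5983 made up 70.7% of this fall of 134 RPM. The sgRNAs share 1 promoter, and all but YLQ5983 and YLQ5984 overlap another, so they are not replicates of one another.

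Under the edgeR calls used here, targets with any depleted sgRNA mostly had a single one. Of 42 targets with at least 2 tested sgRNAs and at least 1 depleted, 40 had exactly 1. These calls were rare, at 0.751% of tested targeting sgRNAs, so few targets could have more than 1. Whether the pattern holds under a looser limit was not tested. Among 785 targets with at least 5 tested sgRNAs, T250470 was in place 10 by the SD of its log2 fold changes (0.77), in place 11 by their range and in place 7 by the gap of 2.01 between its lowest and next lowest sgRNA. The place by SD changed with the filter and the libraries: with only sgRNAs of at least 100 counts before screening it was 4 of 579, and it was 17 without after screening replicate 1, 18 without after screening replicate 3, 23 without after screening replicate 4 and 17 without before screening replicate 2.

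The targets nearest to T250470 in their lowest and highest log2 fold change (distance of the pair of values, all 8 libraries) were T132766 on chromosome 16, T241117 on chromosome 3 and T001568 on chromosome 1. In T132766, YLQ3239 went from 31.5 ± 4.5 to 6.11 ± 2.91 RPM, a log2 fold change of -2.34 (standard error 0.38), and the other 7 sgRNAs lay between -0.07 and 0.15. In T241117, YLQ2433 went from 37.1 ± 7.8 to 7.40 ± 2.15 RPM, a log2 fold change of -2.31 (standard error 0.34), and the other 6 lay between -0.08 and 0.32. The lowest sgRNA of T001568, YLQ452, had a log2 fold change of -1.85 (standard error 0.64), began at 8.12 RPM and was not called. YLQ5983 began from a higher abundance than each of these and had the smallest standard error. The lowest sgRNA of T132766 lies 253 bp downstream of its TSS and that of T241117 153 bp downstream, by their nearest base, so the position of YLQ5983 upstream of the TSS is not shared by them. Their GC contents were 85% and 50%.

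Calls were also counted among sgRNAs that resemble YLQ5983 in sequence or place. Of 165 tested targeting sgRNAs with a GC content of 80% or more, 8 (4.85%) were depleted, against 0.751% of all tested targeting sgRNAs. Of 333 tested targeting sgRNAs at 39 to 193 bp upstream by their nearest base, the distances of T250470, 2 (0.601%) were depleted, YLQ5983 and YLQ718 of T036408, the latter at 172 bp and changed by -1.55 on the log2 scale (standard error 0.17), named after its values were seen. These counts include YLQ5983 itself, and the GC limit was set after the sequences of T250470 were seen, so no test was made. The part of GC content in the loss of YLQ5983 was not tested. YLQ5985, with the highest GC content of the target, had a standard error of 0.47 and is not compared, and the 5 well counted sgRNAs that were not called have 75% or 80%.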

How the data were processed

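PCR in 2 rounds was used by the authors to amplify sgRNAs from genomic DNA, and the deposited files hold raw read counts per sgRNA, separately for each library and not normalized. Bowtie, FastQC 0.11.2 and hg38 are named in the submitters' processing notes, with no roles. How reads were assigned to sgRNAs is not given in the sources used here. A random stretch in the first-round primer has no stated use; the counts were taken as reads, and counting errors cover counting only.

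Libraries were grouped by sample title. All 6862 sgRNAs were filtered with filterByExpr, scaled with TMM factors (0.993 to 1.01) and fitted with glmQLFit (robust) in edgeR 4.0.16 under R 4.3.3, before against after screening, without covariates. The Benjamini-Hochberg adjustment covered the 6587 tested sgRNAs (6126 targeting, 461 non-targeting). Standard errors are the absolute log2 fold change over the root of F. The steps were tested on simulated counts with the same scatter setting for all sgRNAs. That check does not cover the larger scatter of the T250470 sgRNAs with few reads. Distances from the TSS are those of the nearest base of a site, in the direction of transcription.

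T250470, its sgRNAs and the lists were chosen with earlier results of these data known. Named are all sgRNAs of T250470, those of targets within 50 kb, and the 3 targets with at least 5 tested sgRNAs nearest in lowest and highest log2 fold change. Alternatives were scaling by total counts or by non-targeting sgRNAs alone, DESeq2 1.42.0, no filter, a minimum of 100 counts before screening, a replicate block, each library left out, fold changes from mean RPM, and the methods' two-tailed test. That test was run on log2(RPM + 1), with the same adjustment. The methods give 4 independent infections. Calls rest on the spread between the 4 libraries of each group, which edgeR moderates for each sgRNA with that of all tested sgRNAs.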

Additional observations from a re-analysis of the deposited data

Results flagged for a closer look

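In the 20 groups of 4 values checked (the RPM of each of the 9 sgRNAs and the total counts, before and after screening), 2 had a library far from the others, where chance gives about 1 in 20. YLQ5987 had 16 counts in before screening replicate 3 and 3 or 4 in the others (gap over range 0.943 in RPM). The total count of after screening replicate 1 was 3853506, against 3417248 to 3465139 in the other 3 libraries (gap over range 0.890). Without after screening replicate 1, the log2 fold change of YLQ5983 was -2.17.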

How the results depend on the processing

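As T250470 was chosen by these same values, the repeated calls below describe the processing and add no support. YLQ5983 was called depleted, and no other T250470 sgRNA was called, under each scaling, filter, tool, block and left-out library that was run, and with the methods' two-tailed test. Its log2 fold change lay between -2.24 and -2.11 with 1 library left out and was -2.01 from mean RPM with a pseudocount of 5 RPM, which draws fold changes toward 0 by its construction. The log2 fold changes of the other 7 tested sgRNAs moved by less than the spread between replicates under every alternative, but those of YLQ5990, YLQ5985 and YLQ5986 changed sign with the library left out (-0.49 to 0.44, -0.60 to 0.18 and -0.08 to 0.04). The median lay between -0.10 and -0.01 and the range between 2.22 and 2.61 without 1 library. The place of T250470 by SD was 4 with at least 100 counts before screening and 10 to 23 with 1 library left out; the former has fewer targets.

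Over all sgRNAs, 75 were depleted and 18 enriched with DESeq2. The methods' two-tailed test, run here on log2(RPM + 1) with Benjamini-Hochberg adjustment, gave 6 depleted and 0 enriched. The paper's limits are on the p value, with no adjustment stated, and on the fold change, so 6 is not its count of hits. Scaling by total counts left 2 enriched, as did scaling by non-targeting sgRNAs alone. With 1 library left out, 36 to 49 were depleted and 0 to 8 enriched. The cause was not tested. With the replicate number as a block, 52 were depleted and 7 enriched and the log2 fold change of YLQ5983 was -2.19; the median of the target was -0.17 under the block, against -0.03 without it, and YLQ5990 went from 0.07 to -0.22. Deviations of same-numbered libraries from their group means correlated at 0.0849 to 0.115 and those of the 12 other pairs at -0.0582 to -0.0115. Deviations from a group mean cancel out within the group, so positive values in same-numbered pairs push the other pairs to negative ones by construction. The negative values are therefore no second hint. All 8 libraries correlated best with their own number, a hint from the data and not from the design. No sgRNA of another target lies within 50 kb, so that comparison has no value.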
